A study of Mus musculus with 12 samples.

Results

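Macrophages sorted from the mouse aorta were compared by whether they carried LYVE-1, a hyaluronan receptor, on their surface. The comparison takes the 6 aortic libraries of the 12 bulk RNA-seq libraries in the series, chosen by their titles, with 3 from LYVE1+ and 3 from LYVE1- cells, across all genes counted. The other 6 libraries are LYVE1+ and LYVE1- macrophages of epididymal and subcutaneous fat, prepared in the same way. They serve here to estimate the spread of each gene and as a second tissue. Every group came from adult C57/BL6 mice labelled "wid type", read here as wild type, and the labels name no treatment, transgene or exact age. Viable cells were gated on CD45, F4/80, CD11b, CD64 and MerTK and then split by LYVE-1. The aortic cells came from 30 mice with n = 3 stated per group. Whether the 3 libraries of a group were separate pools of mice is not stated in the labels, so p-values measure the spread between these libraries, which may be technical.

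LYVE-1 is best known from lymphatic endothelium. It also marks resident macrophages that lie along vessels in many tissues, in the aorta mainly in the outer wall. Macrophages low for LYVE-1 and high for MHC class II are the other common resident population. Class II molecules display peptides to helper T cells, and monocytes recruited through the chemokine receptor CCR2 can add to the class II high population as they mature.

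The aortic libraries held 12792058 to 29792301 counts, with 17525 to 18962 genes detected and 1.79% to 2.35% of counts from mitochondrial genes. Levels are CPM, a gene's counts scaled to the size of its library after TMM, a normalization for composition. Fold changes are LYVE1+ against LYVE1- on the log2 scale, each with its standard error (SE). A gene was called at a Benjamini-Hochberg adjusted p under 0.05 in edgeR's quasi-likelihood test, adjusted over 14216 genes. Beyond the sort, the labels show a difference in library names. Names of LYVE1+ libraries 1 and 2 begin with RMM, while LYVE1+ library 3 and all LYVE1- libraries begin with RHH, and all 6 fat libraries begin with RMM. What the prefix stands for is not given in the sources used here. The labels also mention 2 sequencing instruments without saying which library ran on which. In fat, the 2 libraries numbered 1 stood apart, with 8.85% and 12.1% of counts from mitochondrial genes, and they enter the shared estimate of spread.

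The sort was checked first on the RNA of its own markers. Lyve1 (ENSMUSG00000030787.3, chromosome 7, 110850607 to 110863239, minus strand) had 2744, 2044 and 2806 CPM in LYVE1+ libraries 1, 2 and 3 and 877, 1323 and 868 CPM in LYVE1- libraries 1, 2 and 3. All LYVE1+ libraries were above all LYVE1- libraries, with means 2532 ± 423 and 1023 ± 260.2 CPM, SD, n = 3. The difference was not called (log2 fold change 1.31, SE 0.32, adjusted p = 0.108) and was called when only the aortic libraries were fitted (adjusted p = 0.0101). Lyve1 RNA was thus present in cells sorted as LYVE1-, at a mean of 1023 CPM. Transcripts of the gate proteins were present in all 6 libraries and none was called. Ptprc, which encodes CD45, had 456 to 494 CPM in the LYVE1+ libraries and 554 to 892 CPM in the LYVE1- libraries, and Fcgr1, which encodes CD64, had 169 to 193 CPM in the LYVE1+ libraries and 139.6 to 204 CPM in the LYVE1- libraries. Mertk had 122 to 209.7 CPM in the LYVE1+ libraries and 103 to 161 CPM in the LYVE1- libraries, Itgam (CD11b) had 509 to 562 CPM in the LYVE1+ libraries and 390.0 to 407 CPM in the LYVE1- libraries, and Adgre1 (F4/80) had 1410.0 to 1694 CPM in the LYVE1+ libraries and 1474 to 1654 CPM in the LYVE1- libraries. Csf1r, the receptor of macrophage growth factor M-CSF, had 6403 to 6668 CPM in the LYVE1+ libraries and 5027 to 5943 CPM in the LYVE1- libraries.

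LYVE1+ aortic macrophages had less RNA for 7 of 11 class II genes and for Ccr2, among other genes, and more RNA for fewer genes, led by the water channel Aqp1 and the complement receptor Vsig4. Calls are edgeR's unless DESeq2 is named. In all, 77 genes were called (0.542% of those tested), 16 higher (0.113%) and 61 lower (0.429%) in LYVE1+ cells. Beside these, 1600 of all 14216 genes had an unadjusted p under 0.05 in edgeR, the background for such counts in the lists below. DESeq2 called 360 of all genes, 123 higher and 237 lower. These shares of calls are the background for counts of calls in the lists below. Of the 77, 69 differed by more than 2-fold, and none of the 77 had overlapping groups, against 3181 genes (22.4%) without overlap among all tested. The median log2 fold change of all genes was -0.01. In bulk libraries, fewer cells carrying a transcript and less RNA per cell cannot be told apart. The plot of fold change against level shows the called genes within all genes.

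**Figure D1:**
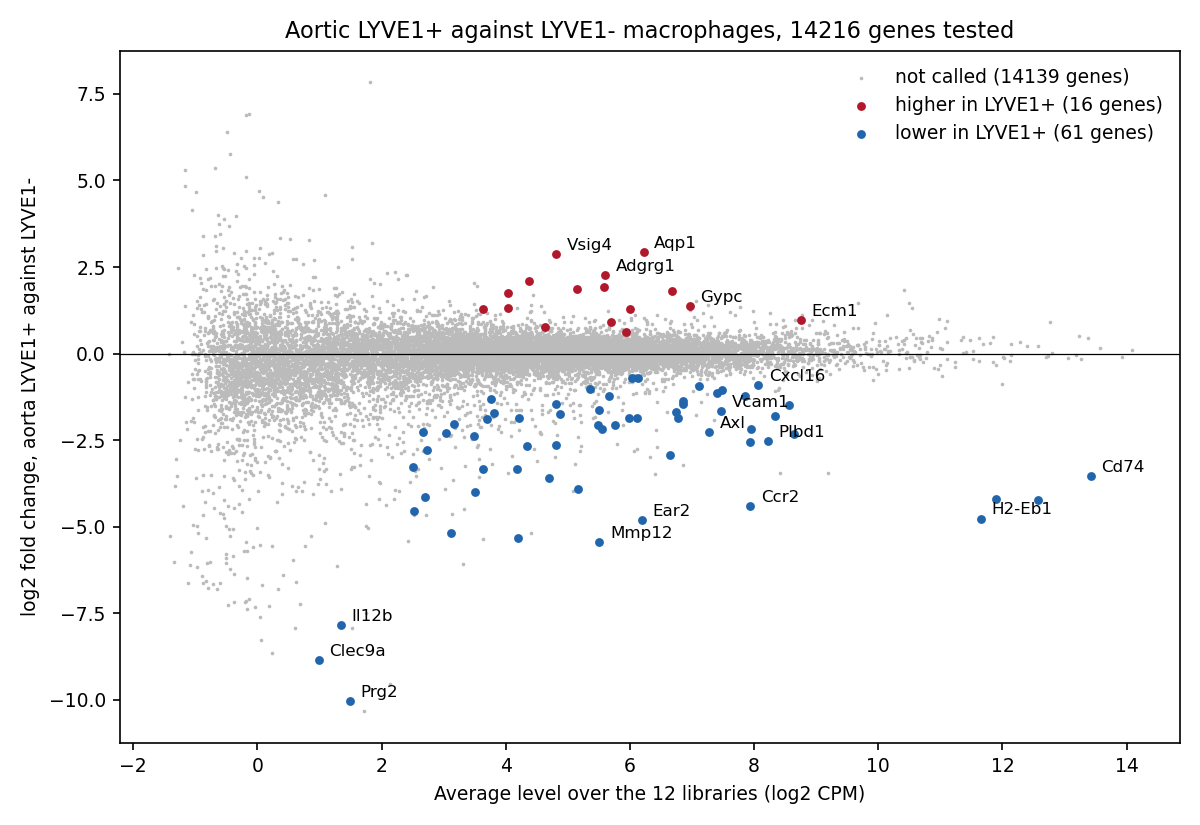
Each point is 1 of 14216 genes, placed by its average level over the 12 libraries (log2 CPM) and its log2 fold change in aorta, LYVE1+ against LYVE1-. The 16 genes called higher (red) lie between 0.61 and 2.92, and the 61 genes called lower (blue) between -0.70 and -10.05, with Cd74, H2-Aa, H2-Ab1 and H2-Eb1 lower at high levels. Fitted values of Prg2 and Clec9a, which have no count in LYVE1+ libraries, depend on the prior count.

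How many genes were called depended on which libraries shared the estimate of spread. With only the aortic libraries fitted, 294 genes were called (2.15%), 99 higher and 195 lower, and 74 of the 77 were among them. Acpp, Kpna2 and St3gal5 were not (adjusted p = 0.0669, 0.0612 and 0.0632 in that edgeR fit). Without the 2 fat libraries numbered 1, 566 genes were called (3.83%), 236 higher and 330 lower, and all 77 were among them. Leaving out LYVE1+ library 1, 2 or 3 kept 26, 33 or 28 of the 77 calls, and leaving out LYVE1- library 1, 2 or 3 kept 22, 54 or 33. In each of these 6 fits 18 calls held, all of genes lower in LYVE1+ cells: H2-Eb1, Ccr2, H2-Ab1, H2-Aa, Grk3, Cd74, H2-DMb1, Plbd1, H2-DMa, Axl, Mpeg1, Clec4b1, Scimp, Pmaip1, Vcam1, Emb, Icosl and Egr2. None of the 16 genes called higher held in all 6.

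With the name prefix as a term in the model, 2 genes were called (0.0141%), Clec4b1 and Plbd1. With only the RHH libraries of the aorta, which leaves LYVE1+ library 3 alone in its group and assumes that it varies like the others, 2 were called, Axl and Clec4b1. All 77 kept their direction in both fits, but it could not turn there because their groups do not overlap. The 77 were chosen with these same libraries. Both fits rest on LYVE1+ library 3 against the LYVE1- libraries, so they are not separate checks (for Cd74 the log2 fold changes were -3.37 and -3.36). The median SE with the prefix term was 1.56 times as large. LYVE1+ library 3 can be read against the RMM libraries directly. For 29 of the 77 its level lay between those of LYVE1+ libraries 1 and 2, for 30 it lay nearer to the LYVE1- mean and for 18 farther. The median size of its log2 difference from the LYVE1- libraries was 2.04, against 1.91 for LYVE1+ libraries 1 and 2, with 0.5 CPM added before the logarithm. Prefix and sort were not tested apart beyond these fits.

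Class II genes made up 7 of the 61 lower genes. These were 7 of the 11 genes on the class II list (0.429% of all genes were called lower). All 11 had negative fold changes and no overlap between the libraries (22.4% of all genes did not overlap), and the median log2 fold change was -3.19 against -0.01 over all genes. The summed level of the list was 2119.6 to 3338 CPM in LYVE1+ and 39231 to 43352 CPM in LYVE1- libraries. Cd74 (ENSMUSG00000024610.13, chromosome 18, 60803848 to 60812652, plus strand), the invariant chain that escorts class II molecules to the endosome, had 1173, 1683 and 1748 CPM in LYVE1+ libraries 1, 2 and 3 and 16373, 20297 and 17378 CPM in LYVE1- libraries 1, 2 and 3. Every LYVE1+ library was below every LYVE1- library, and the fitted difference was 11.7-fold (log2 fold change -3.55, SE 0.37, adjusted p = 0.00141, means 1535 ± 315 and 18016 ± 2038 CPM, SD, n = 3). Among the chains that hold the peptide, the alpha chain H2-Aa (ENSMUSG00000036594.13, chromosome 17, 34282744 to 34287823, minus strand) had 259, 324 and 437 CPM in the LYVE1+ libraries against 5947, 6606 and 6126 CPM in the LYVE1- libraries (log2 fold change -4.20, SE 0.52, adjusted p = 0.00325). Its partner H2-Ab1 (ENSMUSG00000073421.5, chromosome 17, 34257689 to 34269419, plus strand) had 386, 527 and 656 CPM in the LYVE1+ libraries against 9494, 10127 and 9537 CPM in the LYVE1- libraries (log2 fold change -4.22, SE 0.57, adjusted p = 0.00574). The beta chain H2-Eb1 (ENSMUSG00000060586.10, chromosome 17, 34305867 to 34316674, plus strand) had 127, 198 and 275 CPM in the LYVE1+ libraries against 5423, 5661 and 5289 CPM in the LYVE1- libraries (log2 fold change -4.77, SE 0.62, adjusted p = 0.00479). All 3 chains and Cd74 had their lowest LYVE1+ level in library 1 and their highest in library 3, and that spread was smaller than the gap between the groups.

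The peptide exchange factor H2-DM, made of 2 chains, was lower as well. H2-DMa (ENSMUSG00000037649.9, chromosome 17, 34119541 to 34139101, plus strand) had 104, 116 and 124 CPM in the LYVE1+ libraries against 549.9, 585 and 604 CPM in the LYVE1- libraries (log2 fold change -2.33, SE 0.29, adjusted p = 0.00302). Exons of this gene overlap those of Brd2 on the opposite strand. H2-DMb1 (ENSMUSG00000079547.3, chromosome 17, 34153072 to 34160230, plus strand) had 43.4, 64.1 and 58.5 CPM in the LYVE1+ libraries against 332, 319.6 and 335 CPM in the LYVE1- libraries (log2 fold change -2.57, SE 0.29, adjusted p = 0.00198). The LYVE1- libraries lay within 319.6 to 335 CPM for this chain. Ciita (ENSMUSG00000022504.9, chromosome 16, 10480059 to 10528418, plus strand), the coactivator that class II promoters require, had 16.6, 13.1 and 18.3 CPM in the LYVE1+ libraries against 127, 123 and 114 CPM in the LYVE1- libraries and was just inside the threshold (log2 fold change -2.92, SE 0.59, adjusted p = 0.049). Its groups did not overlap, and it lost the call without each of the 6 aortic libraries in turn, with an adjusted p of at most 0.256. With only the aortic libraries fitted its adjusted p was 2.17e-05. DESeq2 called the other 6 and gave Ciita no adjusted p (log2 fold change -2.94, SE 0.69). Exons of Ciita overlap Dexi on the opposite strand.

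The 4 members not called were low and uneven. H2-DMb2 had 1.40, 2.10 and 11.8 CPM in the LYVE1+ libraries against 63.6, 37.7 and 36.8 CPM in the LYVE1- libraries (log2 fold change -3.19, SE 1.16, adjusted p = 0.309). H2-Ob, a chain of the inhibitor of H2-DM, had 14.6, 6.76 and 23.7 CPM in the LYVE1+ libraries against 50.7, 41.0 and 30.8 CPM in the LYVE1- libraries (log2 fold change -1.44, SE 0.78, adjusted p = 0.524). H2-Oa had 0.0752 to 2.99 CPM in the LYVE1+ libraries and 4.71 to 10.1 CPM in the LYVE1- libraries, and H2-Eb2 had 0 to 0.569 CPM in the LYVE1+ libraries and 2.00 to 5.65 CPM in the LYVE1- libraries. In all 4 the highest LYVE1+ level was in library 3. The factors that bind class II promoters beside CIITA were measured too. Of Rfx5, Rfxank, Rfxap, Nfya, Nfyb, Nfyc and Creb1 none was called by edgeR or DESeq2, 1 had an unadjusted p under 0.05, all 7 overlapped between groups, and their median log2 fold change was -0.18. Creb1 had 52.2 to 70.8 CPM in the LYVE1+ libraries and 70.1 to 91.8 CPM in the LYVE1- libraries (log2 fold change -0.37, SE 0.16, adjusted p = 0.391), and Nfyc had 25.8 to 34.9 CPM in the LYVE1+ libraries and 27.2 to 29.3 CPM in the LYVE1- libraries (log2 fold change 0.05, SE 0.15, adjusted p = 0.945). Of 18 class I genes, which present peptides to cytotoxic T cells, none was called by edgeR (4 had an unadjusted p under 0.05), DESeq2 called H2-K1 and Tap1, and their median was -0.21. B2m, the light chain shared by class I molecules, had 2941 to 3348 CPM in the LYVE1+ libraries and 3706 to 3719.8 CPM in the LYVE1- libraries (log2 fold change -0.23, SE 0.19, adjusted p = 0.697), and the heavy chain H2-D1 had 4305 to 4528 CPM in the LYVE1+ libraries and 4177 to 4938 CPM in the LYVE1- libraries (log2 fold change -0.05, SE 0.18, adjusted p = 0.947).

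Sequence upstream of the class II genes is a feature that the counts did not use. The promoters are shown because class II transcription depends on an upstream module whose Y box, the site read by NF-Y, has the core GATTGG. RefSeq windows of 300 bases (build GRCm38.p6, 250 bases before to 50 bases after a RefSeq transcript start) were matched by symbol for the 4 called class II genes shown. Each is given 5′ to 3′ on the strand of its gene, with matches to GATTGG on either strand in capitals.
H2-Aa (chr17:34287774-34288073, minus strand): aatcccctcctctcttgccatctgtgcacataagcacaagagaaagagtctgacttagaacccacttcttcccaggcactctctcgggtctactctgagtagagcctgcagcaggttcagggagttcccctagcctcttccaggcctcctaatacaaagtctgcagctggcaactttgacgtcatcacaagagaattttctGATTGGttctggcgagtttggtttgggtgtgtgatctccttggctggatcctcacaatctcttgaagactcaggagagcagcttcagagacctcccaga
H2-Eb1 (chr17:34305617-34305916, plus strand): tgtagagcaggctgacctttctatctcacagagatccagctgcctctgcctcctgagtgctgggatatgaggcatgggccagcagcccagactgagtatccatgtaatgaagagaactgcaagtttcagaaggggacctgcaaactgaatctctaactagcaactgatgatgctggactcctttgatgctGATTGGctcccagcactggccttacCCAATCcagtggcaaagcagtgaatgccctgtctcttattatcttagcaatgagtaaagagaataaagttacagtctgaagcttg
H2-DMb1 (chr17:34152941-34153240, plus strand): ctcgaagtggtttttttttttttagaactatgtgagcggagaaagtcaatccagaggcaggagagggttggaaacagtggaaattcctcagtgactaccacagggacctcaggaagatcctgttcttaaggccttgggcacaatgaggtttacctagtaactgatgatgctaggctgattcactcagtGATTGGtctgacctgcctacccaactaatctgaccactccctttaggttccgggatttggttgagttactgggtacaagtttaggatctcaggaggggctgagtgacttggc
H2-DMa (chr17:34122582-34122881, plus strand): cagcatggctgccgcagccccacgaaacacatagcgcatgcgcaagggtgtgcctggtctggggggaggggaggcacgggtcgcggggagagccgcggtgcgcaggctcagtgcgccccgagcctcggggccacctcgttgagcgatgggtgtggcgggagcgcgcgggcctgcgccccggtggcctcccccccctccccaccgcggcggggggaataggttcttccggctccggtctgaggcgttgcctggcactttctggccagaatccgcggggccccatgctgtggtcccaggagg
The core began 49 bases before the start in H2-Aa, 60 bases before it in H2-Eb1 and 62 bases before it in H2-DMb1. H2-Eb1 held another match on the opposite strand, 35 bases before the start. In the H2-DMa window, the one of 2 whose start lies nearest to the annotated gene start, these letters were not found, and the other window held them. The printed H2-DMa window lies inside the gene, whose annotated start is at 34119541, so it does not show the sequence around that position. The class II list had 9 windows, for 8 of its 11 genes, and H2-Ab1 and Ciita were among those without a window. Of these 8 of 9 (88.9%) held the core, and among all 32851 windows 5292 (16.1%) did. Windows of the genes called lower other than the class II list held it in 9 of 52 (17.3%), and windows of the genes called higher in 3 of 14 (21.4%). A match is a string of letters and not a measured site.

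Mir5107 was also called lower (log2 fold change -3.27, SE 0.58, adjusted p = 0.0263), but the microRNA gene (ENSMUSG00000093327.1, chromosome 18, 60812076 to 60812163, plus strand) lies inside Cd74 on the same strand, so that its counts cannot be told from those of Cd74.

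Other cells that bear class II include dendritic cells and B cells, whose markers were summed. The 14 conventional dendritic cell markers summed to 339 to 364 CPM in LYVE1+ and 466 to 611 CPM in LYVE1- libraries, and 13 of 14 had negative fold changes. EdgeR called 2, Clec9a and Cadm1, both lower (0.429% of all genes were called lower). Most of that sum came from Cd209a, which is also on the monocyte list, and Siglech, a marker of plasmacytoid rather than conventional dendritic cells. Without them the range was 48.9 to 99.4 against 185 to 301 CPM. Clec9a, which lets cross-presenting dendritic cells sense dead cells, had no count in the LYVE1+ libraries and 229 counts in the LYVE1- libraries (2.61, 1.66 and 8.56 CPM), which is at least 59.3-fold lower when 3 counts over the group are taken as the floor (adjusted p = 0.0316). Ccr7, the receptor that takes dendritic cells to lymph nodes, had 3.91, 1.05 and 30.7 CPM in the LYVE1+ libraries against 96.5, 80.5 and 73.5 CPM in the LYVE1- libraries and was not called (adjusted p = 0.467). None of 11 B cell markers was called by edgeR or DESeq2 (1 had an unadjusted p under 0.05 in edgeR), and their sum, most of it Ighm, overlapped at 759 to 1029.5 against 771 to 1079 CPM. Without Ighm it was 13.4 to 111 against 126 to 210 CPM, with LYVE1+ library 3 highest in its group. The part of these cells in the class II difference was not tested.

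**Figure D2:**
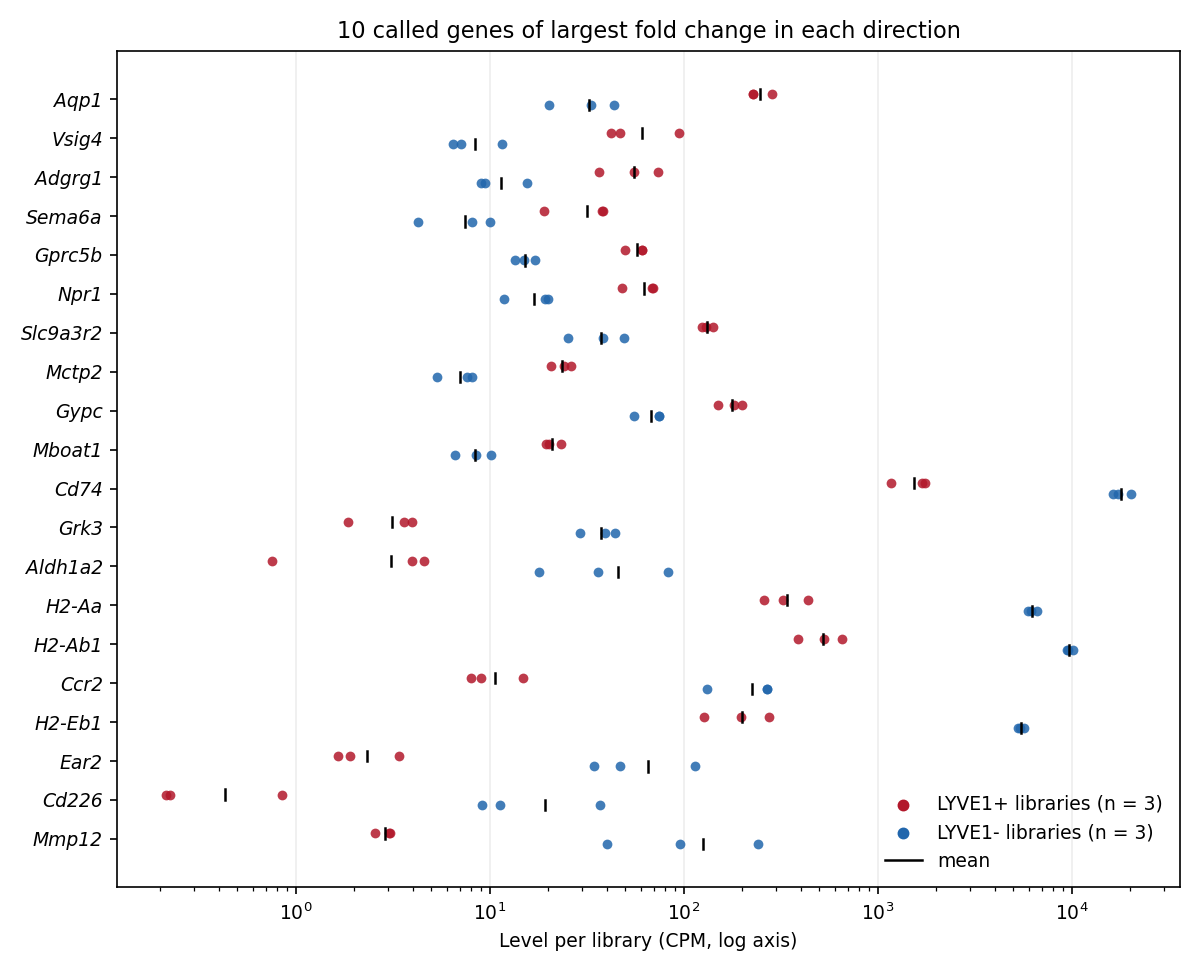
Level per library (CPM, log axis) of the 10 called genes with the largest rise and the 10 with the largest fall, among those averaging 4 or more on the log2 CPM scale. Red points are the 3 LYVE1+ and blue points the 3 LYVE1- libraries, and black bars are means. No gene has overlapping groups, and for Cd74 the LYVE1+ points lie between 1173 and 1748 CPM and the LYVE1- points between 16373 and 20297 CPM.

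Of 15 costimulation and checkpoint genes, edgeR called Icosl lower and Vsig4 higher (0.542% of all genes were called). DESeq2 called Cd274 and Cd83 too, and the median was -0.53. Icosl, the ligand of the costimulator ICOS, had 26.2 to 35.4 CPM in the LYVE1+ libraries and 66.3 to 77.2 CPM in the LYVE1- libraries (log2 fold change -1.23, SE 0.14, adjusted p = 0.00198), and it held without each library. Cd226 (ENSMUSG00000034028.14, chromosome 18, 89176967 to 89272229, plus strand), an activating receptor best known on NK and T cells, had 0.853, 0.226 and 0.213 CPM in the LYVE1+ libraries against 37.1, 9.12 and 11.2 CPM in the LYVE1- libraries (log2 fold change -5.33, SE 0.85, adjusted p = 0.0137). LYVE1- library 1 stood above the other LYVE1- libraries, and the call was lost in 2 of the 6 fits that leave out a library (adjusted p at most 0.0907). Slamf7 and Slamf8, receptors of the SLAM family, were lower by similar amounts (log2 fold changes -1.85 and -1.87), as was Scimp, a membrane adaptor of antigen-presenting cells (-1.88). Fgl2, a fibrinogen-like protein that can be secreted and dampen T cells, was at 116 to 132 against 230.5 to 311 CPM (log2 fold change -1.05, adjusted p = 0.0499). Both Fgl2 and Slamf8 lost the call without each library in turn. Cd274, which encodes PD-L1, had 16.9 to 28.4 CPM in the LYVE1+ libraries and 54.7 to 66.9 CPM in the LYVE1- libraries and missed the threshold (log2 fold change -1.42, SE 0.29, adjusted p = 0.0557). Cd86 had 443 to 517 CPM in the LYVE1+ libraries and 490.3 to 569.5 CPM in the LYVE1- libraries, with overlapping groups.

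Among cytokines, Il12b, a chain shared by interleukins 12 and 23, had 1 count in the LYVE1+ libraries together, in library 3, and 10.8, 4.21 and 6.19 CPM in the LYVE1- libraries. The ratio of LYVE1- to LYVE1+ was 301, with an exact 95% interval of 53.8 to 11932 that covers counting error only (adjusted p = 0.00741). Ccl22, a chemokine for regulatory T cells, had 0, 0.676 and 0.640 CPM in the LYVE1+ libraries against 14.4, 10.1 and 21.8 CPM in the LYVE1- libraries (log2 fold change -5.20, SE 0.95, adjusted p = 0.0316). Cxcl16, a membrane-bound chemokine that also takes up oxidized lipoprotein, was at 249 to 305 against 497 to 536 CPM (log2 fold change -0.92, exons shared with Zmynd15 on the opposite strand). These were the only calls among 25 chemokine and 24 inflammatory genes, with list medians of -0.59 and -0.58. With only the RHH libraries of the aorta these medians were 0.01 and 0.04. That fit keeps LYVE1+ library 3 alone, whose summed level was the highest of the LYVE1+ libraries for both lists, so that prefix and library cannot be told apart here. DESeq2 called Cxcl9, Cxcl12 and Ptgs2 beside the genes above. Of 32 interferon-stimulated genes none was called by edgeR (2 had an unadjusted p under 0.05), DESeq2 called Gbp4, and their median was -0.06. Oasl1 and Ifit1, the 2 of highest level, ranged widely within both groups, Ifit1 from 162 to 933 CPM in LYVE1+ and from 206 to 663 CPM in LYVE1- libraries, and Oasl1 from 149 to 904 and from 242 to 663 CPM.

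Among monocyte genes, Ccr2 (ENSMUSG00000049103.12, chromosome 9, 124101950 to 124113557, plus strand), the receptor that lets monocytes leave the marrow, had 8.02, 14.8 and 8.96 CPM in LYVE1+ libraries 1, 2 and 3 and 269, 132 and 269.7 CPM in LYVE1- libraries 1, 2 and 3. LYVE1- cells had 21.2 times as much (log2 fold change -4.40, SE 0.49, adjusted p = 0.00198), the groups were far apart, and the call held without each library. It was the only call among 21 monocyte genes, of which 18 had negative fold changes, 13 did not overlap (22.4% of all genes) and the median was -1.39. With only the aortic libraries fitted 5 of the 21 were called, all lower, against 195 of 13668 genes called lower in that fit. Fn1, the matrix protein fibronectin that maturing monocytes make, had 17.4, 94.5 and 60.1 CPM in the LYVE1+ libraries against 1228, 203 and 451 CPM in the LYVE1- libraries (log2 fold change -3.45, SE 0.88, adjusted p = 0.125), and Itgax, which encodes CD11c, had 1.25, 1.58 and 0.498 CPM in the LYVE1+ libraries against 66.9, 20.1 and 37.0 CPM in the LYVE1- libraries (log2 fold change -5.20, SE 1.18, adjusted p = 0.083). Neither overlapped between groups and neither was called in the shared fit, while DESeq2 called both. Ly6c2, a marker of classical monocytes, stayed at 0.100 to 0.376 against 0.882 to 1.46 CPM. These 3 were picked after their values were seen.

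Lower as well were Plbd1 and Clec4b1, the 2 genes that were called with the prefix in the model. Plbd1, a phospholipase B-like lysosomal protein of myeloid cells, had 63.1, 63.3 and 54.8 CPM in the LYVE1+ libraries against 396, 295 and 349 CPM in the LYVE1- libraries (log2 fold change -2.52, SE 0.21, adjusted p = 0.000186). Clec4b1, a C-type lectin of the dendritic cell cluster, had 12.1, 14.8 and 10.2 CPM in the LYVE1+ libraries against 55.3, 48.1 and 51.6 CPM in the LYVE1- libraries and the smallest adjusted p of the comparison (log2 fold change -2.06, SE 0.15, adjusted p = 8.19e-05). Their log2 fold changes became, when the prefix was a term, -2.66 and -2.33, with adjusted p = 0.0463 and 0.00415. Mpeg1, the pore-forming perforin-2 of phagocytes, was at 73.3 to 91.8 against 291 to 503 CPM (log2 fold change -2.18). Clec7a, the beta-glucan receptor dectin-1, was at 36.5 to 63.7 against 96.6 to 195 CPM (-1.68), and Fcgr4, an activating Fc receptor, at 7.97 to 15.4 against 29.4 to 49.96 CPM (-1.76). The other 8 Fc receptor genes tested were not called. Emb, a chaperone of lactate transporters, had a log2 fold change of -1.37, and Cd93, a lectin-like receptor of myeloid and endothelial cells, of -1.45.

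Of the matrix proteases, Mmp12 (ENSMUSG00000049723.13, chromosome 9, 7344381 to 7369499, plus strand), the macrophage elastase, had 3.06, 3.01 and 2.56 CPM in LYVE1+ libraries 1, 2 and 3 and 241, 40.2 and 95.6 CPM in LYVE1- libraries 1, 2 and 3. The LYVE1+ libraries were close together and the LYVE1- libraries were spread widely, so that the fold of 43.4 carries a wide error (log2 fold change -5.44, SE 0.88, adjusted p = 0.0137). It stayed called in only 2 of the 6 fits without a library (adjusted p at most 0.117), and its exons overlap Mmp1b on the opposite strand. Mmp19 was lower too, at 14.4 to 27.0 against 52.1 to 163 CPM (log2 fold change -2.19, SE 0.43, adjusted p = 0.045). No other of 26 matrix protease genes was called by edgeR, and DESeq2 called Adam15 as well. With only the aortic libraries 2 were called higher and 4 lower, against 99 and 195 of 13668 genes. In all, 18 of the 26 had negative fold changes, and the median was -0.38. Axl (ENSMUSG00000002602.15, chromosome 7, 25757273 to 25788705, minus strand), a receptor tyrosine kinase that binds dying cells through the bridging protein GAS6, had 29.6, 78.7 and 33.5 CPM in the LYVE1+ libraries against 251, 208 and 227 CPM in the LYVE1- libraries (log2 fold change -2.27, SE 0.31, adjusted p = 0.00619). LYVE1+ library 2 stood above its 2 partners and still below every LYVE1- library. Axl was the only call among 16 genes for uptake of dying cells. Its relative Mertk, used in the sort, was not called (log2 fold change 0.38, SE 0.22, adjusted p = 0.549).

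Among genes of lipids and retinoids, Pparg, the nuclear receptor of fat storage, had 1.504, 4.13 and 1.28 CPM in the LYVE1+ libraries against 12.6, 10.4 and 13.1 CPM in the LYVE1- libraries (log2 fold change -2.39, SE 0.41, adjusted p = 0.0209). Lpl, the lipase that frees fatty acids from lipoproteins, had 70.8, 115 and 62.5 CPM in the LYVE1+ libraries against 396, 160.0 and 315 CPM in the LYVE1- libraries (log2 fold change -1.81, SE 0.32, adjusted p = 0.0237). These were the only calls among 22 lipid handling genes, whose median was -0.07 (0.429% of all genes were called lower). Aldh1a2 (ENSMUSG00000013584.5, chromosome 9, 71215789 to 71296243, plus strand), which makes retinoic acid, had 0.752, 4.58 and 3.98 CPM in the LYVE1+ libraries against 83.3, 17.9 and 36.0 CPM in the LYVE1- libraries (log2 fold change -3.91, SE 0.75, adjusted p = 0.0402). It was uneven in both groups and stayed called without only 1 of the 6 libraries. Aqp9, a channel for glycerol and water, was at 0 to 0.783 against 6.29 to 7.83 CPM (log2 fold change -4.16, SE 0.82, adjusted p = 0.0482), and St3gal5, the synthase of the ganglioside GM3, was lower with a log2 fold change of -1.45. Trem2, Gpnmb and Lgals3, genes of lipid-laden macrophages chosen after their values were seen, were not called by edgeR, while DESeq2 called Lgals3 (log2 fold changes 0.40, -0.98 and -0.64).

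Vcam1, which holds leukocytes through the integrin VLA-4, had 65.0, 67.7 and 70.9 CPM in the LYVE1+ libraries against 230.5, 235 and 178 CPM in the LYVE1- libraries (log2 fold change -1.66, SE 0.22, adjusted p = 0.00574, exons shared with the noncoding Gm43109 on the opposite strand). Its values were tight within each group, and the call held without each library. Cadm1, a cell adhesion molecule also found on cross-presenting dendritic cells, had 1.86, 3.91 and 3.27 CPM in the LYVE1+ libraries against 51.03, 21.4 and 19.1 CPM in the LYVE1- libraries (log2 fold change -3.35, SE 0.58, adjusted p = 0.0232). These were the only calls among 24 integrin and adhesion genes, of which 17 had negative fold changes (median -0.86). Sema4d, a semaphorin, Ctnnd2, a catenin of neural junctions, and Ptprs, a receptor phosphatase for proteoglycans, were lower, with log2 fold changes of -2.64, -2.30 and -1.03. So were Plxdc2 and Olfm1, at -2.06 and -1.87.

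Among signalling genes, Grk3 (ENSMUSG00000042249.10, chromosome 5, 112910482 to 113015791, minus strand), a kinase that desensitizes G protein-coupled receptors, had 1.86, 3.61 and 3.98 CPM in LYVE1+ libraries 1, 2 and 3 and 39.3, 29.1 and 44.1 CPM in LYVE1- libraries 1, 2 and 3. LYVE1- cells had 12.0 times as much (log2 fold change -3.59, SE 0.50, adjusted p = 0.00683) and held without each library. Among such receptors, Ccr2, Ptger2 and Gpr35 were called lower and Adgrg1 and Gprc5b, described with the higher genes, were called higher. Ptger2, the EP2 receptor of prostaglandin, was at 0.676 to 1.10 against 5.04 to 31.8 CPM (log2 fold change -3.99) and Gpr35 at 1.30 to 2.86 against 9.39 to 38.3 CPM (-3.35). Rgs1, which switches off G protein signals, was at 177 to 234 against 518 to 717 CPM (log2 fold change -1.5). The small GTPase regulators Arap3, Rin3 and Tiam1 (-1.71, -1.63 and -1.30), the kinase Pik3cb (-2.03) and the kinases Pim1 and Nuak2 (-0.93 and -0.71) were lower. Among factors that act on DNA, Prdm1, also known as Blimp-1, was at 3.36 to 12.9 against 34.8 to 54.8 CPM, with LYVE1+ library 3 at 12.9 CPM well above libraries 1 and 2 (log2 fold change -2.66, SE 0.47, adjusted p = 0.026). Ehf, an ETS factor (-2.78), Egr2, a zinc finger factor (-1.15), and Ahr, the receptor for aryl hydrocarbons (-0.70), were lower. Pmaip1, the proapoptotic NOXA (-1.86), and Btg1, which restrains proliferation (-1.22), were lower as well. Egr2 was the only call among 25 immediate early genes, and the 28 macrophage transcription factor genes held none in edgeR (7 had an unadjusted p under 0.05) and Runx1 and Tfec in DESeq2.

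Some lower genes are known from granulocytes. Prg2, the major basic protein of eosinophils, had no count in the LYVE1+ libraries and 14.6, 8.82 and 5.83 CPM in the LYVE1- libraries, at least 149-fold lower by the 3-count floor (adjusted p = 0.0137). With at most 0.576 CPM in any fat library, it passed the filter on low counts only through the aortic LYVE1- libraries, where it is high. Ear2 (ENSMUSG00000072596.4, chromosome 14, 44102654 to 44103534, plus strand), a ribonuclease of eosinophils that monocytes and macrophages also express, had 1.91, 1.65 and 3.42 CPM in the LYVE1+ libraries against 114, 34.3 and 47.1 CPM in the LYVE1- libraries (log2 fold change -4.81, SE 0.97, adjusted p = 0.049), and the call was lost without each library in turn. Counts of Ear2 may be shared with its close paralogs. The 9 eosinophil markers summed to 5.60 to 15.0 CPM in LYVE1+ and 51.6 to 158 CPM in LYVE1- libraries, and Prg2, Epx, Ear1 and Ear6 had no count in LYVE1+ cells. The 10 mast cell markers summed to 2.70 to 16.3 against 53.1 to 86.7 CPM. Of these Kit, Fcer1a and Tpsab1 had counts only in LYVE1- libraries, and none of the 8 tested was called by edgeR (6 had an unadjusted p under 0.05), while DESeq2 called 4, Cpa3, Kit, Mcpt4 and Tpsb2. Their part in the differences was not tested. Mucl1 (log2 fold change -4.55, SE 0.71, adjusted p = 0.0124) and Acpp, a phosphatase (log2 fold change -2.28, SE 0.43, adjusted p = 0.0357), were low in all libraries and completed the 61.

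**Figure D3:**
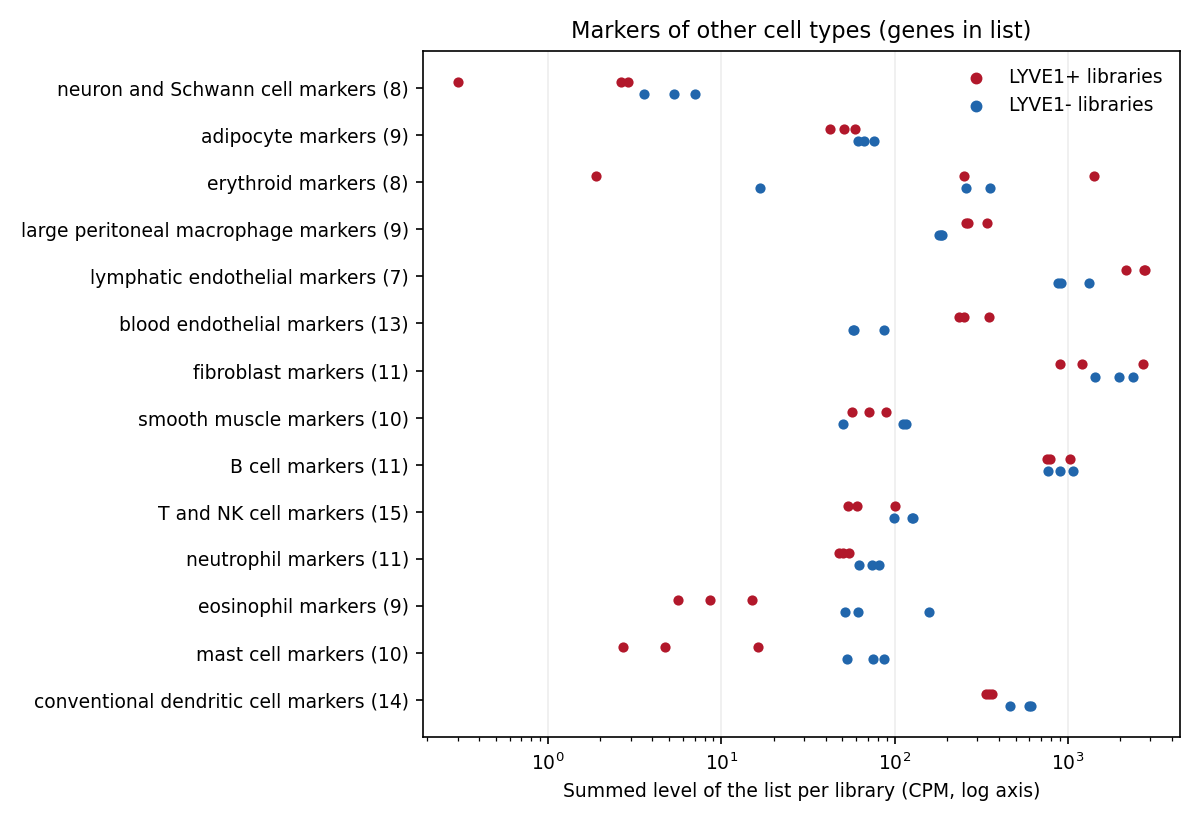
Summed level of each marker list of another cell type in each library (CPM on the plain library size, log axis), with LYVE1+ libraries in red and LYVE1- libraries in blue. Sums of conventional dendritic cell, mast cell, eosinophil, neutrophil, adipocyte, and neuron and Schwann cell markers are lower in every LYVE1+ library. The blood endothelial sum is higher in every LYVE1+ library through Aqp1. The large peritoneal macrophage sum, mostly Timd4, is higher in each as well, and the lymphatic endothelial sum is nearly all Lyve1.

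Fewer genes were higher in LYVE1+ cells. The largest difference was in Aqp1 (ENSMUSG00000004655.5, chromosome 6, 55336432 to 55348555, plus strand), a water channel of red cells, kidney and endothelium, with 226, 285 and 228 CPM in LYVE1+ libraries 1, 2 and 3 and 20.3, 33.2 and 43.9 CPM in LYVE1- libraries 1, 2 and 3. The groups were far apart, 7.59-fold (log2 fold change 2.92, SE 0.46, adjusted p = 0.0137), and the call was lost only without 1 library (LYVE1- library 1, adjusted p = 0.0934). The other 12 blood endothelial markers summed to 10.4 to 56.8 CPM in LYVE1+ and 25.1 to 42.9 CPM in LYVE1- libraries, overlapping, and Cdh5, the cadherin that defines endothelium, had 0.953 to 3.76 CPM in the LYVE1+ libraries and 1.22 to 1.34 CPM in the LYVE1- libraries. Red cell markers summed to 1.88 to 1412 CPM in LYVE1+ and 16.8 to 355 CPM in LYVE1- libraries. LYVE1+ library 2, the highest for Aqp1, was the lowest for red cell markers and the highest of all 6 for the other blood endothelial markers, and the part of either cell type in the Aqp1 difference was not tested. Vsig4 (ENSMUSG00000044206.3, chromosome X, 96247203 to 96293438, minus strand), a receptor for complement fragments of C3 on resident macrophages, had 42.1, 94.1 and 46.8 CPM in LYVE1+ libraries 1, 2 and 3 and 7.09, 6.48 and 11.5 CPM in LYVE1- libraries 1, 2 and 3. This was 7.30-fold more (log2 fold change 2.87, SE 0.43, adjusted p = 0.0103), with LYVE1+ library 2 highest, and it lost the call only without LYVE1- library 1 (adjusted p = 0.0831).

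Several of the higher genes encode receptors of the cell membrane. Adgrg1 (ENSMUSG00000031785.14, chromosome 8, 94974751 to 95014217, plus strand), the adhesion receptor GPR56, had 73.4, 36.5 and 55.4 CPM in the LYVE1+ libraries against 9.50, 15.6 and 9.05 CPM in the LYVE1- libraries (log2 fold change 2.26, SE 0.38, adjusted p = 0.0178). It was the only call among 14 adhesion receptor genes of this class. Npr1 (ENSMUSG00000027931.11, chromosome 3, 90450591 to 90465866, minus strand), the receptor of atrial natriuretic peptide, had 68.7, 48.2 and 69.7 CPM in the LYVE1+ libraries against 11.8, 19.3 and 19.9 CPM in the LYVE1- libraries (log2 fold change 1.87, SE 0.33, adjusted p = 0.0237, exons shared with Gm16048 on the opposite strand). Gprc5b (ENSMUSG00000008734.8, chromosome 7, 118972047 to 118995211, minus strand), an orphan receptor, had 61.1, 49.5 and 60.5 CPM in the LYVE1+ libraries against 13.4, 15.0 and 17.1 CPM in the LYVE1- libraries (log2 fold change 1.91, SE 0.35, adjusted p = 0.0324, exons shared with Iqck). In each of these 3 the lowest LYVE1+ library was more than 2 times as high as the highest LYVE1- library. Sema6a (ENSMUSG00000019647.15, chromosome 18, 47235598 to 47368870, minus strand), a transmembrane semaphorin, had 37.9, 18.9 and 38.5 CPM in the LYVE1+ libraries against 8.09, 10.01 and 4.25 CPM in the LYVE1- libraries (log2 fold change 2.09, SE 0.38, adjusted p = 0.0324). Ednrb, an endothelin receptor, was not called by edgeR (log2 fold change 1.12, SE 0.37, adjusted p = 0.259) although its libraries did not overlap, at 1298 to 1479.6 against 550.4 to 679.5 CPM. Among 18 aquaporin and vasoactive receptor genes Aqp1 and Npr1 were called higher and Aqp9 and Ptger2 lower (0.113% and 0.429% of all genes). This list was chosen with earlier results of these data known.

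The remaining higher genes have mixed roles. Slc9a3r2 (ENSMUSG00000002504.13, chromosome 17, 24639286 to 24650327, minus strand), the scaffold NHERF2, had 142, 129 and 124 CPM in the LYVE1+ libraries against 25.3, 49.1 and 38.6 CPM in the LYVE1- libraries (log2 fold change 1.81, SE 0.36, adjusted p = 0.0482). Mctp2 (ENSMUSG00000032776.8, chromosome 7, 72077830 to 72306608, minus strand), a calcium-binding membrane protein, had 24.1, 26.1 and 20.7 CPM in the LYVE1+ libraries against 5.35, 7.60 and 8.14 CPM in the LYVE1- libraries (log2 fold change 1.74, SE 0.32, adjusted p = 0.0339). Gypc (ENSMUSG00000090523.2, chromosome 18, 32528322 to 32560034, minus strand), glycophorin C of the membrane skeleton, had 182, 199.8 and 150.4 CPM in the LYVE1+ libraries against 55.1, 74.2 and 74.6 CPM in the LYVE1- libraries (log2 fold change 1.38, SE 0.26, adjusted p = 0.033). For each of these genes the LYVE1+ libraries spanned less than the gap between groups. Mboat1 (ENSMUSG00000038732.13, chromosome 13, 30136489 to 30246717, plus strand), a lysophospholipid acyltransferase, had 19.6, 20.2 and 23.3 CPM in the LYVE1+ libraries against 10.2, 6.61 and 8.50 CPM in the LYVE1- libraries (log2 fold change 1.32, SE 0.26, adjusted p = 0.045). Mamdc2, a matrix proteoglycan, was at 70.8 to 83.3 against 29.0 to 32.5 CPM (log2 fold change 1.28), and Ecm1, a secreted matrix protein, at 575 to 802 against 307 to 367 CPM (0.96). Akr1b8, an aldo-keto reductase (1.30), Ceacam1, an inhibitory adhesion molecule (0.91), and Kpna2, an importin (0.78), followed. Ndufb9, a subunit of respiratory complex I, was the smallest difference called (log2 fold change 0.61, SE 0.12).

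Genes of resident perivascular macrophages had higher mean levels throughout and mostly missed the threshold. Of 25 listed genes, chosen with earlier results of these data known, all 25 had a positive fold change and 16 did not overlap between groups (22.4% of all genes), with a median of 0.59. In the shared fit only Vsig4 was called higher (0.113% of all genes), and with only the aortic libraries 10 were called, all higher (2.15% of all genes were called in either direction). DESeq2 called 6. Fcna, a ficolin of the lectin pathway, had 1659, 1605 and 1601 CPM in the LYVE1+ libraries against 284, 509 and 568 CPM in the LYVE1- libraries (log2 fold change 1.84, SE 0.41, adjusted p = 0.0739). Folr2, a folate receptor, had 2973, 2829.8 and 3085 CPM in the LYVE1+ libraries against 1069, 1779 and 1758 CPM in the LYVE1- libraries (log2 fold change 0.95, SE 0.33, adjusted p = 0.285). Timd4, a receptor for phosphatidylserine, had 249.7, 276 and 242 CPM in the LYVE1+ libraries against 127, 157 and 159 CPM in the LYVE1- libraries (log2 fold change 0.80, SE 0.36, adjusted p = 0.426). For all 3 every LYVE1+ library was above every LYVE1- library. So it was for Mrc1, the mannose receptor CD206, by a smaller amount (4122 to 4931 against 3532 to 3851 CPM, log2 fold change 0.29). The transcription factor Maf, which upholds this state, overlapped between groups (log2 fold change 0.06). Apart from Vsig4 these genes were picked after their values were seen.

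**Figure D4:**
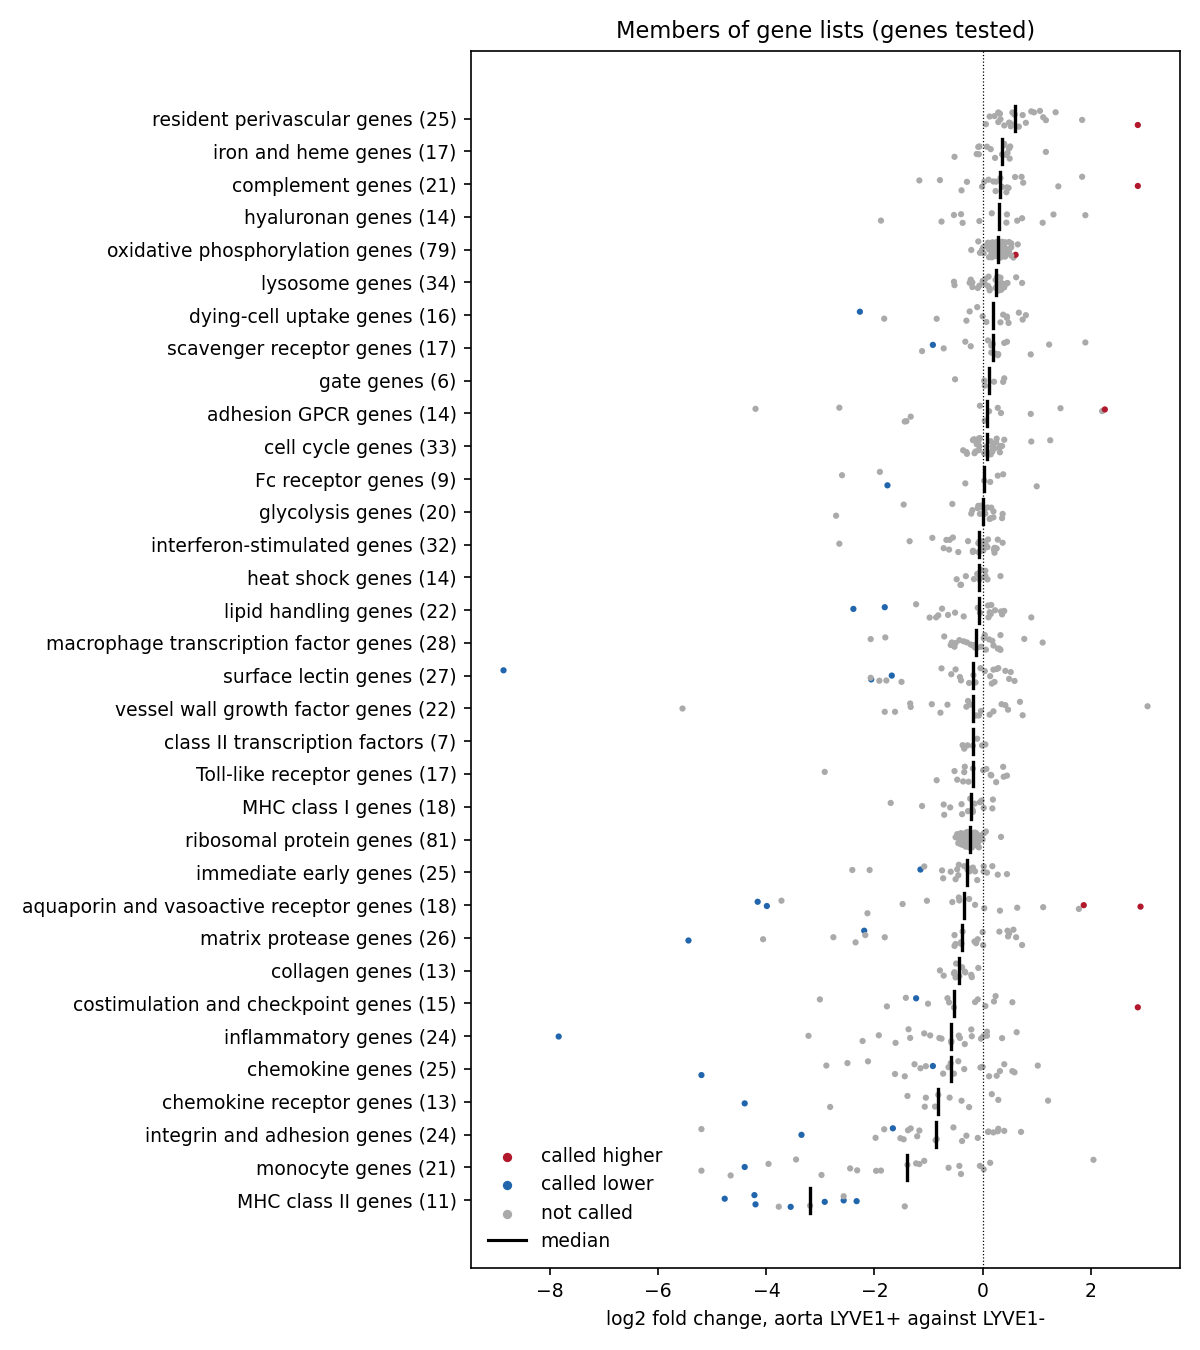
Each row is a gene list, with the number of members tested, and each point is a member placed by its log2 fold change in aorta, LYVE1+ against LYVE1-. Red and blue points were called higher and lower, grey points were not called, and the black bar is the list's median, from -3.19 for class II to 0.59 for resident perivascular genes.

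Housekeeping lists leaned to one sign by small amounts. Of 79 nuclear genes of oxidative phosphorylation, 75 were positive with a median of 0.29, and 44 did not overlap between groups (22.4% of all genes). Only Ndufb9 was called by edgeR (27 had an unadjusted p under 0.05, against 1600 of all 14216 genes), while DESeq2 called Ndufb9, Ndufs7, Ndufv1 and Uqcrq. Of 81 ribosomal protein genes, 77 were negative with a median of -0.23, and none was called (2 had an unadjusted p under 0.05). Of 34 lysosomal genes, 25 were positive (median 0.25) and none was called (4 had an unadjusted p under 0.05). These 3 medians kept their sign under every alternative normalization, filter and left-out library. That statement does not cover the prefix term or the fit with only RHH libraries. The lysosomal protease Ctsb had 12344 to 12998 CPM in the LYVE1+ libraries and 7453 to 10293 CPM in the LYVE1- libraries and Psap, the precursor of saposins, had 3281 to 3936 CPM in the LYVE1+ libraries and 4135 to 4553 CPM in the LYVE1- libraries. The 33 cell cycle genes held no call (2 had an unadjusted p under 0.05) and had a median of 0.08, with the replication helicase genes Mcm3 and Mcm6 at 105 to 113 against 91.5 to 99.1 CPM and 83.5 to 116 against 79.3 to 93.8 CPM. Of 21 complement genes 16 were positive (median 0.33), and Vsig4 was the only call. All 13 collagen genes were negative (median -0.43), none was called or had an unadjusted p under 0.05 in edgeR, and all overlapped between groups. DESeq2 called none of the ribosomal, lysosomal, cell cycle or collagen genes. Within LYVE1+ cells library 2 was highest, with Col1a1 at 306, 962 and 448 CPM in the LYVE1+ libraries against 449, 899.5 and 615 CPM in the LYVE1- libraries and Col3a1 at 294, 682 and 366 CPM in the LYVE1+ libraries against 407, 719 and 549 CPM in the LYVE1- libraries. Fibroblast markers summed to 902 to 2719.7 against 1430.0 to 2382 CPM.

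Further lists had no or few calls. No hyaluronan gene of 14 was called (median 0.31, and -0.14 without LYVE1+ library 2). Stab1, a scavenger receptor that binds hyaluronan, had 2239 to 2481 CPM in the LYVE1+ libraries and 1549.7 to 1878 CPM in the LYVE1- libraries, and DESeq2 called it with Lyve1, Hyal1 and Hyal2. No gene was called among 17 Toll-like receptor genes (Cd14 -0.47, Unc93b1 0.16), 17 iron and heme genes (Ftl1 0.23, Fth1 -0.11), 20 glycolysis genes (Pfkfb3 0.05, Pkm 0.03), 14 heat shock genes (Hspa8 0.05, Hspa1a -0.08), 22 growth factor genes of the vessel wall (Grn 0.47, Igf1 0.13) or the macrophage transcription factors (Zeb2 -0.16, Stat3 -0.22), all as log2 fold changes. In the hyaluronan list and the first 5 of these, 8, 4, 6, 2, 3 and 5 genes had an unadjusted p under 0.05 in edgeR, against 1600 of all 14216 genes. DESeq2 called Tlr1, Slc40a1, Bag3, Hsph1 and Gdf3 in them and no glycolysis gene. The scavenger receptor list of 17 held 1 call, Cxcl16. The surface lectin list of 27 held 3, Clec4b1, Clec7a and Clec9a, all lower (0.429% of all genes were called lower). The chemokine receptor list of 13 held Ccr2 alone.

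Markers of further cell types were present at low levels. Lymphatic endothelial markers other than Lyve1 summed to 18.1 to 59.9 against 9.61 to 18.9 CPM, overlapping, with LYVE1+ library 2 highest. Of the 6 tested with Lyve1, 5 had positive fold changes (median 2.24). EdgeR called none (4 had an unadjusted p under 0.05), and 3 with only the aortic libraries, all higher (99 of 13668 genes were called higher there). DESeq2 called Lyve1, Ccl21a and Mmrn1. Ccl21a had 5.69 to 18.2 CPM in the LYVE1+ libraries and 0.334 to 1.76 CPM in the LYVE1- libraries, Mmrn1 had 1.28 to 15.5 CPM in the LYVE1+ libraries and 0.243 to 0.339 CPM in the LYVE1- libraries, and their part in the comparison was not tested. Prox1, which defines that endothelium, had 1.42 to 6.61 CPM in the LYVE1+ libraries and 2.19 to 4.51 CPM in the LYVE1- libraries. Smooth muscle markers summed to 57.0 to 89.0 against 50.3 to 117 CPM, T and NK cell markers to 53.6 to 101 against 99.5 to 127 CPM, and adipocyte markers to 42.6 to 58.9 against 61.6 to 76.2 CPM. Large peritoneal macrophage markers summed to 260.0 to 340.1 against 182 to 188 CPM, mostly Timd4. Neutrophil markers, nearly all Csf3r, summed to 47.8 to 54.6 against 62.3 to 81.0 CPM, with S100a9, Ly6g and Elane at 0 in all 6 libraries. Neuron and Schwann cell markers summed to 0.300 to 2.89 against 3.55 to 7.04 CPM. Smooth muscle, and T and NK cell, sums overlapped between the groups. EdgeR called no gene of the lists in this paragraph, and DESeq2 called Klrb1c, Cidec and Ngfr beside the lymphatic markers.

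Fat macrophages, sorted in the same way, gave a second measure of the 77 genes in libraries that the aortic contrast did not use. Same-numbered fat libraries deviated together, but those numbered 2 and 3 did so across numbers as well. Counts with the replicate number as a block are given beside the others. In fat 558 genes were called (3.93%), 259 higher (1.82%) and 299 lower (2.10%). Of the 77 aortic calls 54 were also called in fat with the same sign (70.1% of the 77, 9.68% of the fat calls), 12 of the 16 higher and 42 of the 61 lower. With the replicate block 915 genes were called in fat, and 180 of 243 aortic calls were also called there with the same sign. The sign was the same for 75 (97.4%), against 64.1% of all genes. The exceptions were Prg2 and Kpna2, neither called in fat. Prg2 was near the floor in fat, at 0.576, 0 and 0 CPM in LYVE1+ and 0, 0 and 0.0996 CPM in LYVE1- libraries. Its sign there is therefore not established. The median size of the log2 fold change was 2.06 in aorta and 2.11 in fat, and the aortic median stays the same with Prg2 and Clec9a at their bounds. Gene by gene, 50 of the 77 were farther from 0 in aorta and 27 in fat. The 77 were chosen by their aortic test, so these sizes are not compared on equal terms. Both tissues enter the same fit, so they share the estimate of spread though no library.

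The genes called in both tissues span the roles above. Cd74, H2-Aa, H2-Ab1 and H2-Eb1 had fat log2 fold changes of -2.73, -3.12, -3.08 and -3.37, each nearer to 0 than in aorta. Vcam1 and Fcgr4 were farther from 0 in fat, at -3.12 and -3.21 against -1.66 and -1.76 in aorta. Adgrg1 was at 4.89 in fat and 2.26 in aorta, and Npr1 at 4.17 and 1.87. Of 14216 genes 22 (0.155%) were called for a difference between tissues, none of them among the 77, whose lowest adjusted p was 0.134 and of which 20 had an unadjusted p under 0.05 in edgeR. DESeq2 called 5 of the 77 for it, Adgrg1, Kpna2, Npr1, Prg2 and Vcam1, of which Prg2 was near the floor in fat. Aqp1 had a fat log2 fold change of 0.18 (adjusted p = 0.906) against 2.92 in aorta, a difference of 2.74 (adjusted p = 0.237). Its fat levels were 20.0, 4.42 and 5.44 CPM in LYVE1+ and 11.9, 5.30 and 7.57 CPM in LYVE1- libraries, with overlapping groups. Aqp1 was called in the aorta only, and neither tool called the difference between the tissues.

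**Figure D5:**
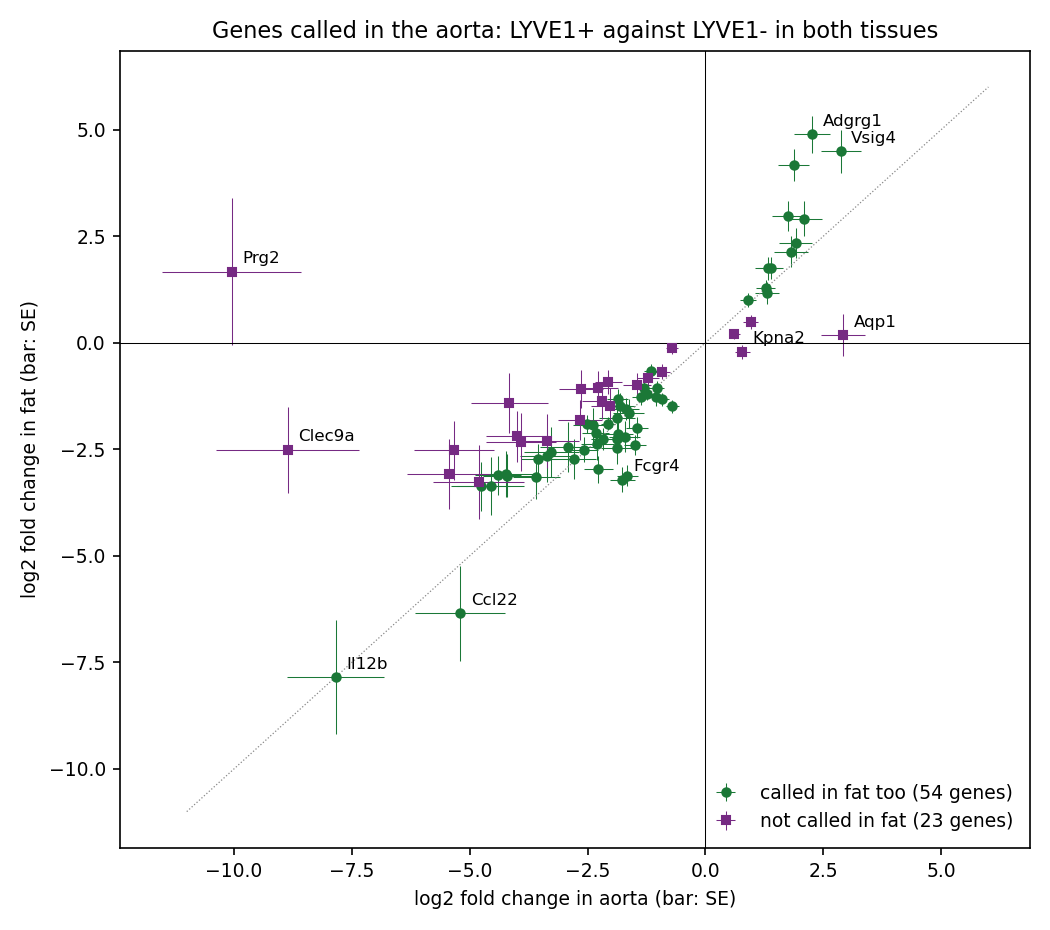
Each of the 77 genes called in the aorta is placed by its log2 fold change in aorta and in fat, LYVE1+ against LYVE1-, with bars for the SE and a dotted line where both are equal. Green circles are the 54 genes called in fat too and purple squares the 23 that were not, among them Aqp1 (2.92 and 0.18) and Prg2 (-10.05 and 1.67). Prg2 had no count in aortic LYVE1+ libraries and at most 0.576 CPM in a fat library, so its position is uncertain on both axes.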

How the data were processed

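RNA of 12 libraries of sorted macrophages was sequenced by Smart-seq2, from 2 ng of RNA with paired reads of 51 cycles, per the labels' protocols. The deposited values used here are raw read counts for 46517 genes, made with STAR 2.5.2b and featureCounts 1.5.0 on build GRCm38, per the submitters' processing notes, which also name edgeR 3.14.0. Their annotation release and strand setting are not given in the sources used here, and 13 of the 77 called genes share exons with a gene on the opposite strand. Symbols and positions came from GENCODE M21 by Ensembl identifier (46005 genes matched).

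All 12 libraries entered 1 edgeR 4.0.16 quasi-likelihood fit (R 4.3.3) with TMM factors and 1 mean for each group. The filterByExpr function left 14216 genes, and the fit had 8 residual degrees of freedom. Tests were two-sided. The SE is the size of the log2 fold change divided by the square root of F. List sums are CPM on the plain library size. DESeq2 1.42.0 was an alternative. Deviations from the group means of same-numbered libraries correlated at 0.486, 0.279 and 0.184 in fat. Fat LYVE1+ library 2 with LYVE1- library 3 gave 0.192, and LYVE1+ library 3 with LYVE1- library 2 gave 0.225. Only the fat libraries numbered 1 thus stood apart as a pair, so whether the numbers mark pairs is not settled. Blocked counts are given for fat beside the others. Same-numbered libraries of the aorta did not pair. Tested on simulated counts with these library sizes, the aortic comparison recovered 51.5%, 92.2% and 92.6% of changes of 1, 2 and 3 on the log2 scale, with 7 false calls among 13798 genes. The changes were placed only in genes above a minimum level. Counts were drawn independently, without differences between tissues or prefixes, so these shares hold for that setting and not for genes of low level.

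The genes described and the 48 gene lists were chosen with earlier results of these data known. By rule the text names every called gene. From each list it names the called members or, where none was called, the 2 with the highest mean aortic CPM, with the gate genes and Lyve1. Each library is given for Lyve1, the called class II genes and the 10 called genes that rose most and the 10 that fell most, among those averaging a log2 CPM of at least 4. Genes named beside these were picked after their values were seen. Promoter windows are from RefSeq. Reads carry no molecular identifiers, so intervals and floors cover counting error only.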

Additional observations from a re-analysis of the deposited data

Results flagged for a closer look

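Mcm3, a subunit of the replication helicase, differed between tissues in its LYVE1 contrast by the test of the difference itself, a call that most alternatives lost. In the aorta it was at 105 to 113 CPM in LYVE1+ and 91.5 to 99.1 CPM in LYVE1- libraries (log2 fold change 0.19, adjusted p = 0.6). In fat it was at 71.4 to 73.1 against 109.7 to 141 CPM (log2 fold change -0.83, adjusted p = 0.00273). The difference was 1.02 (SE 0.17, adjusted p = 0.0466, edgeR). DESeq2, DESeq2-type size factors and the fit without both fat libraries numbered 1 kept the call (adjusted p = 9.52e-06, 0.044 and 0.01). The other 10 of 13 alternatives lost it, with differences of 0.98 to 1.05: no filter (adjusted p = 0.0558), the replicate block (0.0723), leaving out any 1 aortic library (0.126 to 0.184), the prefix term (0.391) and only RHH libraries (0.68).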

How the results depend on the processing

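The number of calls moved with the libraries fitted and the tool. No called gene turned, but groups that do not overlap fix that direction in most of these fits. Against 77 calls, 16 higher and 61 lower, the aorta gave 336 (79 and 257) with no filter on low counts, 294 (99 and 195) with only the aortic libraries, 566 (236 and 330) without both fat libraries numbered 1, 360 (123 and 237) by DESeq2, and 2 (0 and 2) both with the prefix as a term and with only the RHH libraries of the aorta. In the last 2 fits 821 and 779 genes had an unadjusted p under 0.05. Leaving out 1 aortic library gave 23 to 64 calls, 1 to 8 higher and 22 to 58 lower. DESeq2-type size factors gave 78. Same-numbered aortic libraries did not deviate together (correlations of their deviations -0.044, -0.077 and -0.17), so the numbers were not taken to pair them. In fat only the libraries numbered 1 stood apart as a pair. A fit with the replicate block gave 243 calls in the aorta (81 higher and 162 lower), 915 in fat, and 180 aortic calls also called in fat.

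In fat the 558 calls became 887 without both libraries numbered 1 and 1013 by DESeq2, and 439 to 512 without 1 aortic library. The 54 aortic calls also called in fat became 207 with no filter, 300 without both fat libraries numbered 1, 196 by DESeq2, 2 with the prefix term or only RHH libraries, and 21 to 42 without 1 aortic library. The 22 calls for a difference between tissues became 72 with no filter, 84 without both fat libraries numbered 1, 100 by DESeq2, 0 with the prefix term or only RHH libraries, and 0 to 16 without 1 aortic library. The cause of these changes was not tested. The interaction call of Mcm3 is 1 of the 22.

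Of the genes named by rule but not called, 18 changed sign in some fit. As log2 fold changes with the prefix term and with only RHH libraries, Car3 was 0.24 and 0.25, Pdpn 0.08 and 0.09, Oasl1 0.81 and 0.82, Pkm -0.05 and -0.04, Adgre1 -0.13 and -0.12, Ighm -0.18 and -0.17, Igf1 -0.06 and -0.06, and Mcm6 -0.03 and -0.02. With the replicate block Pdpn was 0.13, Hba-a1 -0.31 and Hbb-bs -0.16. Without 1 aortic library the ranges were -0.80 to 0.11 for Col1a1, -0.33 to 0.27 for Car3, -0.28 to 0.08 for Hspa1a, -0.41 to 0.74 for Pdpn, -0.86 to 0.36 for Oasl1, -0.11 to 0.01 for H2-D1, -0.09 to 0.11 for Pkm, -0.11 to 0.15 for Fcgr1, -0.01 to 0.12 for Adgre1 and -0.09 to 0.13 for Nfyc. They were -0.06 to 0.20 for Hspa8, -0.04 to 0.15 for Pfkfb3, -0.05 to 0.34 for Ighm, -0.25 to 0.73 for Ifit1, -0.70 to 2.06 for Hba-a1 and -0.60 to 2.05 for Hbb-bs.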
